A study of Mus musculus with 14 samples.

Results

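The comparison described here set the 2 libraries labelled E10.5 of the mouse aorta-gonad-mesonephros region (AGM) against the 2 libraries labelled E9.5, which are 4 of the 14 RNA-seq libraries of the series, chosen by their sample titles. The E10.5 libraries are labelled as embryonic AGM at E10.5, named for the embryonic day. The E9.5 libraries are labelled as the caudal portion of the embryo at E9.5, with a part abbreviated PsP. Both groups came from wild-type C57BL/6 mice, and each group has 1 library from each of 2 sequencing rounds, written r1 and r2. The other libraries are 2 of AGM labelled E11.5, which entered the model to help estimate the spread, and 8 of dorsal skin. The labels do not say how many embryos went into a library or whether the rounds used separate embryos, so p-values here measure only the spread between these libraries. Age and dissected tissue change together between the groups and cannot be told apart.

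The AGM is the strip of trunk on both sides of the dorsal aorta in which the first blood stem cells arise from the artery wall, under the control of transcription factors such as Runx1 and Gata2. Beside the aorta it holds the mesonephros, an early kidney, and the coelomic epithelium from which the gonads form, and a dissection may carry along somite, gut, nerve and neural tube. At earlier stages the rear of the embryo is still growing from a tailbud of progenitors that express Cdx and Wnt genes, Hox genes are switched on in order along the clusters, and the RNA-binding protein Lin28a declines as let-7 microRNAs mature.

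The libraries held 24513201 and 25818165 counted reads in the E10.5 group and 29534551 and 24335839 in the E9.5 group. Xist, the RNA of the inactive X chromosome, had 0.612 and 1035 counts per 1000000 counted reads (CPM) in the libraries labelled E10.5 and 0.203 and 494 CPM in those labelled E9.5, so the first round was low and the second round high in both groups. Ddx3y, a gene of the Y chromosome, had 78.0 and 29.5 CPM at labelled E10.5 and 77.4 and 54.4 CPM at labelled E9.5. The second-round libraries thus held RNA of both sexes and the first-round libraries almost only of males. The 2 rounds of a group therefore did not use the same set of embryos. At labelled E11.5 Xist was high in both rounds (428 and 586 CPM). The part of embryo sex in the round term was not tested. The deposited column names of the second round carry sample numbers without ages, and they were matched to the samples by the numbers of the first round. Each of these 3 columns correlated most, across genes, with the first-round library of its own number (r of 0.995 for E10.5 and 0.994 for both E9.5 and E11.5). Next came E10.5 r1 for E9.5 r2 (0.991) and for E11.5 r2 (0.969), and E9.5 r1 for E10.5 r2 (0.984). The margin was thus small for E9.5 r2. Endothelial and kidney genes were detected in all 4 libraries: Cdh5, the cadherin of endothelial junctions, had 99.9 and 80.6 CPM in the libraries labelled E10.5, against 111 and 86.0 CPM in those labelled E9.5. Pax2, a regulator of the mesonephric duct, had 28.8 and 22.8 CPM at labelled E10.5, against 23.8 and 20.3 CPM at labelled E9.5.

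Several defining genes went against the labelled ages and tissue. Cdx4, a tailbud regulator, had no count in either library labelled E9.5, where a count of 0 allows up to 0.102 and 0.123 CPM (3 counts), and it had 0 and 0.0387 CPM at labelled E10.5 and 51.9 and 29.2 CPM at E11.5. Msgn1, which marks presomitic mesoderm, had 0.0339 and 0 CPM at labelled E9.5, 0 and 0 CPM at E10.5 and 7.13 and 3.34 CPM at E11.5, and Wnt3a, a tailbud Wnt ligand, had 0 and 0.0411 CPM, 0 and 0 CPM and 13.4 and 9.15 CPM at the same labelled ages. These 3 tailbud genes were at or near 0 in the libraries labelled as caudal embryo and present in those labelled E11.5. Some other genes of the tailbud list were not near 0 at labelled E9.5: T, the Brachyury factor of tailbud and notochord, had 12.4 and 12.3 CPM at labelled E9.5, 11.7 and 12.4 CPM at E10.5 and 43.1 and 20.2 CPM at E11.5. Rspo3 and Gdf11 of that list fell, with 22.1 and 25.1 CPM and 59.2 and 65.4 CPM at labelled E9.5. At E11.5 they had 19.4 and 12.4 CPM and 53.3 and 45.0 CPM. The whole list of 18 genes summed to 168 and 181 CPM at labelled E9.5 and rose to 631 and 387 CPM at E11.5. Nr5a1, the master regulator of the gonad and adrenal primordium, ran the other way, with 17.0 and 13.4 CPM at labelled E9.5, 9.71 and 7.32 CPM at E10.5 and 0.0806 and 0 CPM at E11.5. Lin28a, which falls with age in mouse embryos, had 22.99 and 40.8 CPM at labelled E9.5, 121 and 129 CPM at E10.5 and 571 and 496 CPM at E11.5, while in the first-project skin libraries it had 366 CPM at E9.5, 84.6 CPM at E10.5, 0.667 CPM at E12.5 and 0.940 CPM at E14.5. Whether the labels E9.5 and E11.5 were exchanged was not tested, so every direction below belongs to the libraries as labelled.

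**Figure D1:**
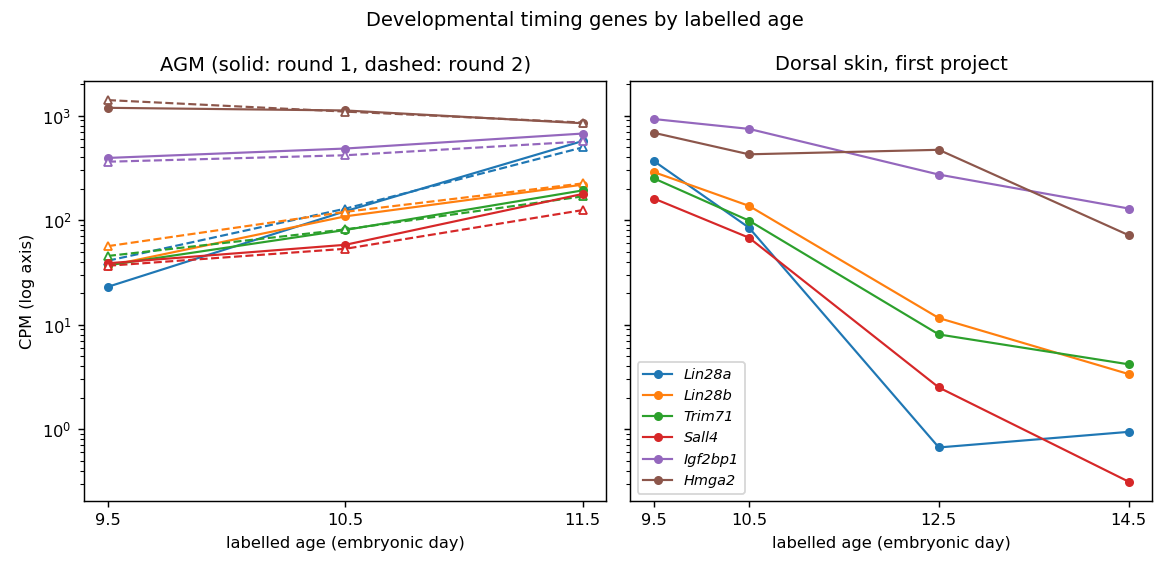
CPM (log axis) of 6 timing genes by labelled age, in the 6 AGM libraries (left, solid lines for round 1 and dashed for round 2) and in the 4 first-project skin libraries (right). Lin28a, Lin28b, Trim71, Sall4 and Igf2bp1 climb with labelled age in AGM in both rounds and are lower at E14.5 than at E9.5 in skin, while Hmga2 is lower at labelled E11.5 than at E9.5 in AGM.

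Neural progenitor genes, trunk Hox genes, muscle genes and the genes of the Lin28 pathway were higher in the libraries labelled E10.5. Macrophage genes, extracellular matrix genes, the Hox genes of the far posterior and gonad genes were lower. In edgeR's quasi-likelihood test with the sequencing round as a block, 4237 of 17613 tested genes (24.1%) passed an adjusted p of 0.05, 2131 of them higher (12.1% of tested genes) and 2106 lower (12% of tested genes) in the libraries labelled E10.5. More genes fell than rose by over 2-fold, 487 against 183, and the median log2 change of all tested genes was -0.0010. All 4237 called genes changed in the same direction in both rounds, and for 3717 the groups did not overlap. The calls used these same libraries with the round as a block, so selection favours this agreement and it is no independent replication. Over all tested genes the changes of the 2 rounds correlated with r = 0.694. Among all tested genes both E10.5 libraries stood above both E9.5 libraries in 17.6% and below them in 31.8%. These shares, like the 3717, compare CPM without the TMM scaling of the fit. The scaling factors were 1.04998 and 1.0453 for the E9.5 libraries, against 1.00043 and 1.01559 for the E10.5 libraries. Unscaled CPM thus sets the E9.5 libraries higher against the E10.5 libraries than the fit does, which favours the second share. How much of the uneven split this makes up was not tested. Without the round term 457 genes passed, 154 higher and 303 lower, and the count was 1712 without E10.5 r1 and 1722 without E10.5 r2.

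**Figure D2:**
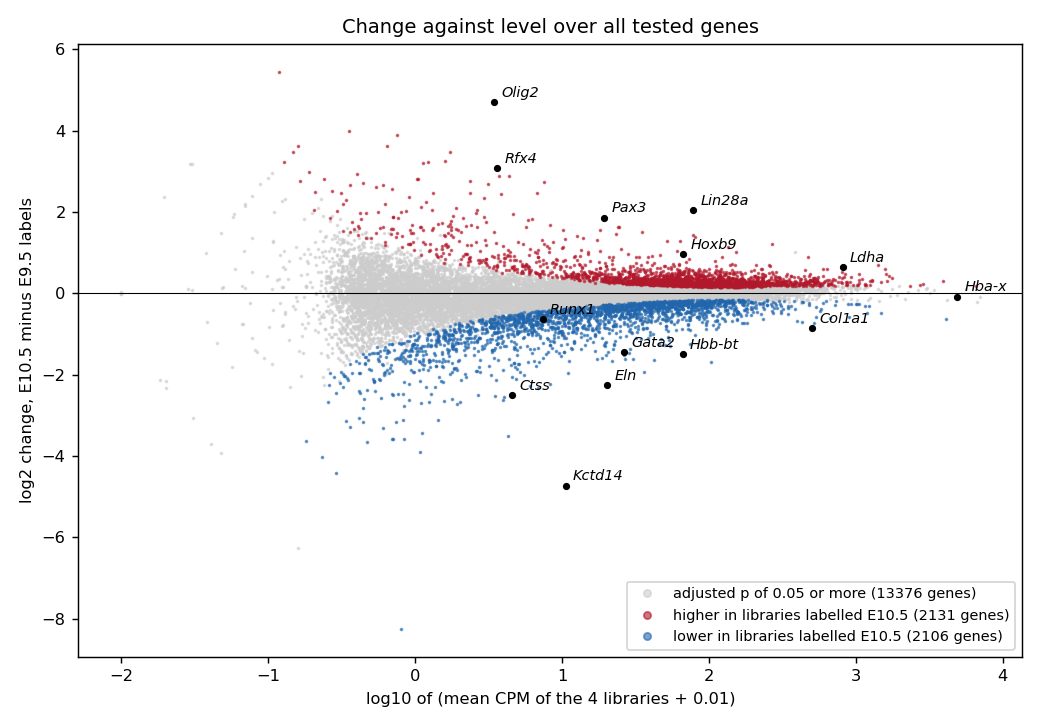
Log2 change (vertical axis, E10.5 minus E9.5 labels) against the log10 mean CPM of the 4 libraries for the 17613 tested genes, with 2131 higher genes in red and 2106 lower genes in blue. Most changes at high level are small, and the changes past 2-fold lie mainly among genes of low and middle level, with Olig2 and Kctd14 far from the rest at their level.

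**Figure D3:**
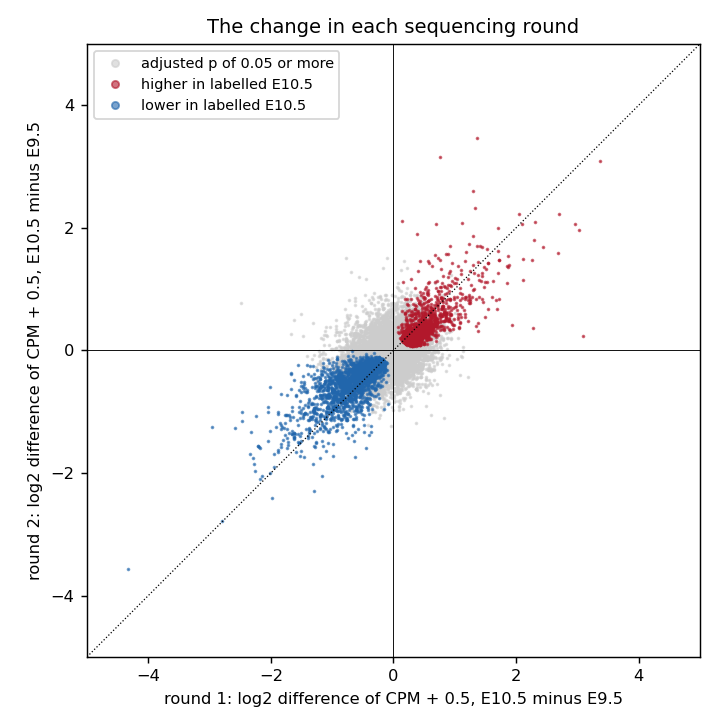
Log2 difference of CPM + 0.5 between the libraries labelled E10.5 and E9.5 in round 1 (horizontal) and round 2 (vertical), 1 point a tested gene. The called genes lie in the quadrants in which both rounds have the same sign, which the call from these same libraries favours.

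The 12 genes that rose most among those named by rule (called, averaging at least 5 CPM where they were higher, with no overlap) were led by regulators of the neural tube. Olig2, a transcription factor of motor neuron progenitors (chr16:91225550-91228677, GRCm38), had 7.02 and 6.16 CPM in the libraries labelled E10.5, against 0.237 and 0.288 CPM in those labelled E9.5. Both E9.5 values were below 1 CPM, and the log2 change was 4.70 ± 0.23 (SE; adjusted p = 3.33e-07). Rfx4, needed for patterning of the neural tube, had 5.51 and 7.28 CPM at labelled E10.5, against 0.440 and 1.19 CPM at labelled E9.5 (log2 change 3.07 ± 0.26). Neurog2, a proneural factor, had 6.69 and 8.44 CPM at labelled E10.5, against 0.406 and 1.85 CPM at labelled E9.5. Neurod4, which acts after it, had 11.7 and 14.2 CPM at labelled E10.5, against 1.12 and 3.12 CPM at labelled E9.5. E9.5 r1 was the lowest of the 4 for both, and the log2 changes were 2.87 ± 0.31 and 2.72 ± 0.22. Nhlh1, a factor of newly born neurons, rose by 1.95 ± 0.18, and Mir124-2hg, a host transcript of the neuronal microRNA miR-124, rose by 2.88 ± 0.39 on the log2 scale, with 4.04 and 9.06 CPM at labelled E10.5, against 1.32 and 0.370 CPM at labelled E9.5. Pax3, a regulator of the dorsal neural tube and dermomyotome, had 23.5 and 36.3 CPM at labelled E10.5, against 4.71 and 13.1 CPM at labelled E9.5 (log2 change 1.86 ± 0.19). Lbx1, which marks migrating muscle precursors and dorsal spinal neurons, had 9.79 and 8.29 CPM at labelled E10.5, against 2.47 and 2.96 CPM at labelled E9.5 (log2 change 1.79 ± 0.19). Wfikkn1, a secreted protein that binds myostatin and GDF11, rose by 1.82 ± 0.17, Btbd17 by 2.43 ± 0.21 and Sowahb by 2.46 ± 0.17 on the log2 scale. The twelfth is Lin28a, described with its pathway. Pax3 did not pass without the round term (adjusted p = 0.0615). Mir124-2hg had a log2 change between 2.01 and 4.43 with 1 library left out.

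The 12 genes that fell most under the same rule, which leaves out lower genes such as S100a8, were a mixed set with macrophage, matrix and signalling members. Kctd14, of the KCTD family of adaptor proteins (chr7:97451323-97459557, GRCm38), had 0.857 and 0.581 CPM in the libraries labelled E10.5, against 28.2 and 12.7 CPM in those labelled E9.5. E9.5 r1 was more than 2-fold above E9.5 r2, both stood above the E10.5 libraries, and the log2 change was -4.73 ± 0.19 (SE; adjusted p = 1.09e-07). Clca3a1, of a family of chloride channel regulators, had 0.816 and 0.504 CPM at labelled E10.5, against 9.07 and 6.62 CPM at labelled E9.5 (log2 change -3.51 ± 0.27). Nr1h5, a nuclear receptor that binds lanosterol in the mouse, changed by -2.56 ± 0.22, and Rtl3, an X-linked gene derived from a retrotransposon, by -2.23 ± 0.17. Gdf10, a BMP-like ligand, had 1.35 and 0.775 CPM at labelled E10.5, against 7.14 and 6.45 CPM at labelled E9.5. Inhba, the activin subunit, had 1.55 and 1.90 CPM at labelled E10.5, against 10.2 and 5.71 CPM at labelled E9.5. The log2 changes of Gdf10 and Inhba were -2.63 ± 0.21 and -2.10 ± 0.29. Evx2, a homeobox gene beside the Hoxd cluster, had 1.47 and 1.08 CPM at labelled E10.5, against 7.08 and 4.56 CPM at labelled E9.5 and fell (log2 change -2.12 ± 0.27). The others were Ctss, Mpeg1 and Fcrls of macrophages and Ogn and Eln of the matrix, described below. Evx2 did not pass without the round term (adjusted p = 0.0526).

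**Figure D4:**
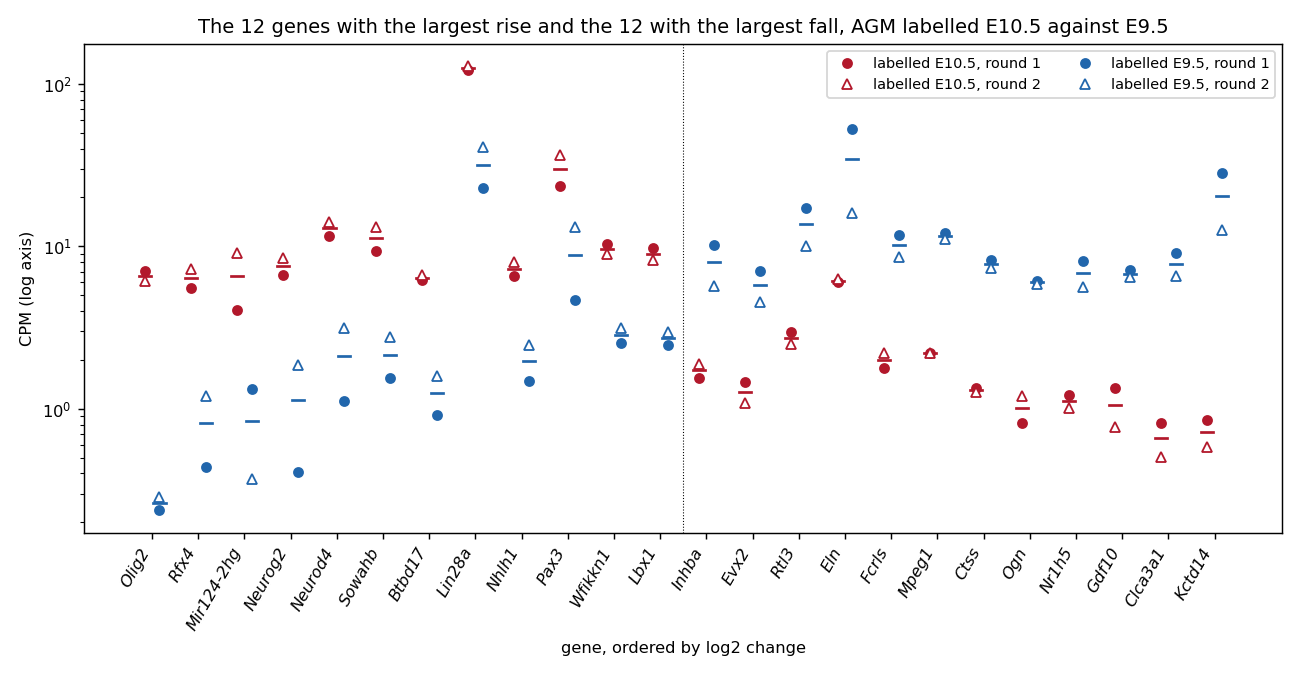
CPM (log axis) of the 24 genes named by rule in each library, labelled E10.5 (red, left of each pair) and labelled E9.5 (blue, right), with circles for round 1, triangles for round 2 and bars for the mean of the 2 libraries. The rule picked only genes without overlap between the groups. The E9.5 libraries differ by more than 2-fold for Neurog2, Mir124-2hg, Eln, Neurod4, Pax3, Rfx4 and Kctd14.

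The genes of the Lin28 and let-7 pathway, which times developmental transitions, were higher in the libraries labelled E10.5. Of 14 tested members of the list, 11 rose and 0 fell (4 and 0 without the round term), where 12.1% of all tested genes rose and 12% fell. The median log2 change was 0.44 against -0.0010 over all tested genes. Lin28a, which blocks the maturation of let-7, had 121 and 129 CPM in the libraries labelled E10.5, against 22.99 and 40.8 CPM in those labelled E9.5. The E10.5 libraries stood close together and the E9.5 libraries well below them, and the log2 change was 2.05 ± 0.17 (SE; adjusted p = 1.17e-05). Its paralogue Lin28b had 109 and 119.8 CPM at labelled E10.5, against 36.5 and 56.3 CPM at labelled E9.5 (log2 change 1.37 ± 0.11). Trim71, a let-7 target that represses messenger RNAs, had 80.4 and 81.4 CPM at labelled E10.5, against 36.9 and 45.4 CPM at labelled E9.5 (log2 change 1.04 ± 0.094). Hmga1, a chromatin protein, changed by 0.70 ± 0.084, Arid3a by 0.60 ± 0.059 and Sall4, a pluripotency-linked zinc finger protein, by 0.62 ± 0.096 on the log2 scale. Smaller changes passed the test for Igf2bp1 and Igf2bp3, RNA-binding proteins (0.31 ± 0.064 and 0.29 ± 0.059), and for Mycn (0.40 ± 0.063). Hmga2, the best-known let-7 target among chromatin proteins, did not follow them: it had 1119 and 1091 CPM at labelled E10.5, against 1186 and 1406 CPM at labelled E9.5 and did not pass (log2 change -0.17 ± 0.076, adjusted p = 0.123). Arid3a, Sall4, Igf2bp1, Igf2bp3 and Mycn did not pass without the round term (adjusted p of 0.0679 to 0.24). Igf2bp1 (without E10.5 r1, adjusted p up to 0.0974) and Igf2bp3 (without E10.5 r1, adjusted p up to 0.0678) did not pass with 1 library left out.

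The let-7 family is shown because its shared seed defines the target sites in these genes. In the RefSeq table (GRCm38.p6), 11 distinct mature sequences from 13 loci share the seed at bases 2 to 8, which is in capitals in 3 of them here. The microRNAs themselves were not measured, since polyA-selected messenger RNA was sequenced.
let-7a-5p: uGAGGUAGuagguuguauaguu
let-7g-5p: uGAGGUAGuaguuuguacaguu
miR-98-5p: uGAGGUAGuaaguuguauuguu

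The matching 8-base site CTACCTCA, searched on the transcribed strand of the longest 3' UTR that GENCODE M21 gives a gene, occurred in 545 of 14760 tested genes with a 3' UTR (3.69%). Lin28a holds 2 such sites, Lin28b 1, Trim71 4, Igf2bp1 3 and Hmga2 1. Sall4, Igf2bp2, Igf2bp3 and Arid3a hold 1 each, and Hmga1, Mycn, Arid3b and Dnmt3b, which rose, and Dppa4 hold none. These are counts of the 8-base form only. Of its first 7 bases alone, Hmga2 and Lin28b hold 4 matches each, Hmga1 and Arid3b 1 each, and Mycn, Dnmt3b and Dppa4 none. The 30 bases that end in an 8-base site are printed with the site in capitals, read 5' to 3' on the minus strand of GRCm38.
Lin28a site 1 (chr4:134005189-134005218): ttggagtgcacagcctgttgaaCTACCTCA
Lin28a site 2 (chr4:134004551-134004580): atgctttgagatcgccacaaacCTACCTCA
Lin28b site (chr10:45381022-45381051): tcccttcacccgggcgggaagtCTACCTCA
Trim71 site 1 (chr9:114512472-114512501): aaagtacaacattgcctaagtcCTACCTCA
Igf2bp1 site 1 (chr11:95961778-95961807): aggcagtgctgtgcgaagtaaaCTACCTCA
Hmga2 site (chr10:120364224-120364253): agggggcgccgacattcaatttCTACCTCA

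Among the 545 genes with 1 or more sites 84 rose (15.4%, against 13.8% of all 14760) and 79 fell (13.6% of all 14760 fell). Among the 29 genes with 2 or more sites 9 rose (31%) and 2 fell (6.9%), and among the 7 with 3 or more 4 rose and none fell. These 4 are Trim71, Igf2bp1, Fignl2 and Nr6a1. The members with many sites also have long 3' UTRs, with a median of 4457 bases for 3 or more sites against 1189 bases for all genes, and for 2 or more sites the part of UTR length was not tested. Among genes with a 3' UTR of 2000 to 6000 bases, 17.3% of the 271 with 1 or more sites rose and 15.5% fell, against 12.4% and 16.6% of the 3803 without a site. Nr6a1, a nuclear receptor of the early embryo, had 32.2 and 35.2 CPM in the libraries labelled E10.5, against 11.48 and 14.1 CPM in those labelled E9.5 (log2 change 1.46 ± 0.088). Fignl2 changed by 1.01 ± 0.089. Igdcc3, a surface protein of the immunoglobulin family with 2 sites, changed by 1.22 ± 0.14. Mcf2l and Trim6, which hold 7 and 5 sites, did not pass (log2 changes -0.17 ± 0.10 and 0.14 ± 0.11). Nr6a1, Fignl2, Igdcc3, Mcf2l and Trim6 were picked after their values were seen.

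Most genes of neural tube progenitors were higher in the libraries labelled E10.5, and their median was the highest of the lists with 9 or more tested genes. Of 19 tested members 13 rose and 0 fell (9 and 0 without the round term), with a median log2 change of 1.35. Over all tested genes 12.1% rose and 12% fell. The SoxB1 factors that keep neural cells as progenitors were all higher. Sox2 had 12.48 and 15.2 CPM in the libraries labelled E10.5, against 6.77 and 6.20 CPM in those labelled E9.5. Sox1 had 1.35 and 1.43 CPM at labelled E10.5, against 0.0677 and 0.123 CPM at labelled E9.5. Sox3 had 3.14 and 2.60 CPM at labelled E10.5, against 0.372 and 0.247 CPM at labelled E9.5. Levels of Sox1 and Sox3 were below 0.5 CPM in both libraries labelled E9.5, and the log2 changes were 1.14 ± 0.11 for Sox2, 3.90 ± 0.41 for Sox1 and 3.25 ± 0.26 for Sox3. Pax6, of the mid and ventral neural tube, had 1.31 and 2.29 CPM at labelled E10.5, against 0.169 and 0.370 CPM at labelled E9.5, and Hes5, a Notch target in neural progenitors, had 1.88 and 2.48 CPM at labelled E10.5, against 0.237 and 0.247 CPM at labelled E9.5 (log2 changes 2.81 ± 0.34 and 3.22 ± 0.35). Foxa2, which marks the floor plate, notochord and gut, rose by 1.06 ± 0.16, and Nkx2-2, of the most ventral progenitors, by 0.84 ± 0.26 on the log2 scale. Nkx6-1, a broader ventral factor that other tissues also express, had 15.4 and 11.3 CPM at labelled E10.5, against 15.03 and 11.1 CPM at labelled E9.5 and did not pass. Nkx2-2 did not pass without the round term (adjusted p = 0.114). Nkx2-2 (without E9.5 r1 or E9.5 r2 or E10.5 r1 or E10.5 r2, adjusted p up to 0.217) did not pass with 1 library left out.

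Genes of young neurons changed in both directions. Of 20 tested members 10 rose and 2 fell (2 and 1 without the round term), with a median log2 change of 0.29. Over all tested genes 12.1% rose and 12% fell. Factors of motor neurons rose, with 2.53 and 2.67 CPM in the libraries labelled E10.5, against 1.19 and 0.575 CPM in those labelled E9.5 for Mnx1 and 2.69 and 3.95 CPM at labelled E10.5, against 1.56 and 0.575 CPM at labelled E9.5 for Lhx3 (log2 changes 1.63 ± 0.30 and 1.65 ± 0.36). The general neuronal tubulin Tubb3 had 84.0 and 85.4 CPM at labelled E10.5, against 63.9 and 53.4 CPM at labelled E9.5 (log2 change 0.58 ± 0.084), whereas Isl1, expressed in motor and sensory neurons and in mesoderm, had 40.5 and 43.4 CPM at labelled E10.5, against 69.8 and 76.1 CPM at labelled E9.5 and fell (log2 change -0.74 ± 0.064). Syt1, of synaptic vesicles, also fell (log2 change -0.89 ± 0.20), and Stmn2 and Dcx, of growing axons, did not pass (log2 changes 0.0088 ± 0.14 and 0.063 ± 0.18). Without E10.5 r2, 3 members rose, and without E9.5 r2, 6 fell. Mnx1, Lhx3 and Syt1 did not pass without the round term (adjusted p of 0.0738 to 0.0935). Mnx1 (without E10.5 r2, adjusted p up to 0.0661), Lhx3 (without E10.5 r2, adjusted p up to 0.157) and Syt1 (without E9.5 r1 or E10.5 r1, adjusted p up to 0.187) did not pass with 1 library left out. Lhx3 had a log2 change between 0.92 and 2.76 and Syt1 one between -1.26 and -0.49 with 1 library left out.

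Genes of the trunk's nervous system outside the neural tube passed in both directions. The neural crest and Schwann precursor list had 2 higher and 2 lower of 12 tested members (median -0.0082), where 24.1% of all tested genes were called. Sox10, the defining factor of neural crest, had 59.2 and 52.8 CPM in the libraries labelled E10.5, against 47.5 and 52.5 CPM in those labelled E9.5 and did not pass. Sympathetic and chromaffin genes were lower in part, with 3 higher and 7 lower of 14 (median -0.33, 0 and 2 without the round term). Th, the first enzyme of catecholamine synthesis, had 14.03 and 10.7 CPM at labelled E10.5, against 20.7 and 16.7 CPM at labelled E9.5, and Dbh, a later enzyme, had 61.0 and 42.2 CPM at labelled E10.5, against 74.7 and 64.5 CPM at labelled E9.5 (log2 changes -0.55 ± 0.12 and -0.39 ± 0.081). Chga, a protein of secretory granules, fell most of the list (log2 change -1.38 ± 0.14). Without E10.5 r2, 1 member rose and 2 fell. Th and Dbh did not pass without the round term (adjusted p of 0.151 to 0.29). Th (without E10.5 r2, adjusted p up to 0.139) and Dbh (without E9.5 r2 or E10.5 r2, adjusted p up to 0.189) did not pass with 1 library left out. Dbh had a log2 change between -0.57 and -0.23 with 1 library left out.

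Hox genes, whose order along each cluster matches the order of the body axis, split by position. In paralogue groups 1 to 5, 7 of 15 tested genes rose and 0 fell (median log2 change 0.29), and in groups 6 to 9, 9 of 12 rose and 0 fell (median 0.45). In groups 10 to 13, 0 of 9 rose and 7 fell (median -1.10), where 12.1% of all tested genes rose and 12% fell. Hoxb9 had 85.0 and 88.2 CPM in the libraries labelled E10.5, against 43.3 and 49.6 CPM in those labelled E9.5, the largest change of groups 6 to 9 (log2 change 0.96 ± 0.073, SE; adjusted p = 6.83e-06). Hoxb8 had 44.6 and 49.0 CPM at labelled E10.5, against 26.7 and 30.7 CPM at labelled E9.5 (log2 change 0.76 ± 0.097). Hoxb1, of the front end of the cluster, had 8.24 and 6.70 CPM at labelled E10.5, against 3.08 and 3.62 CPM at labelled E9.5 (log2 change 1.22 ± 0.17). At the other end Hoxd13, which patterns the hindgut, genital tubercle and digits, had 14.3 and 11.4 CPM at labelled E10.5, against 35.3 and 29.3 CPM at labelled E9.5. Hoxa13 had 5.06 and 4.30 CPM at labelled E10.5, against 11.6 and 11.9 CPM at labelled E9.5. Hoxd12 had 7.22 and 3.37 CPM at labelled E10.5, against 17.7 and 16.1 CPM at labelled E9.5. Both groups were apart for all 3, with log2 changes of -1.28 ± 0.16 for Hoxd13, -1.28 ± 0.15 for Hoxa13 and -1.66 ± 0.20 for Hoxd12. Without the round term the counts were 1 and 2 higher in the 2 anterior lists and 2 lower in groups 10 to 13, and without E10.5 r2 they were 1, 2 and 3. Hoxd13 did not pass without the round term (adjusted p = 0.0861).

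**Figure D5:**
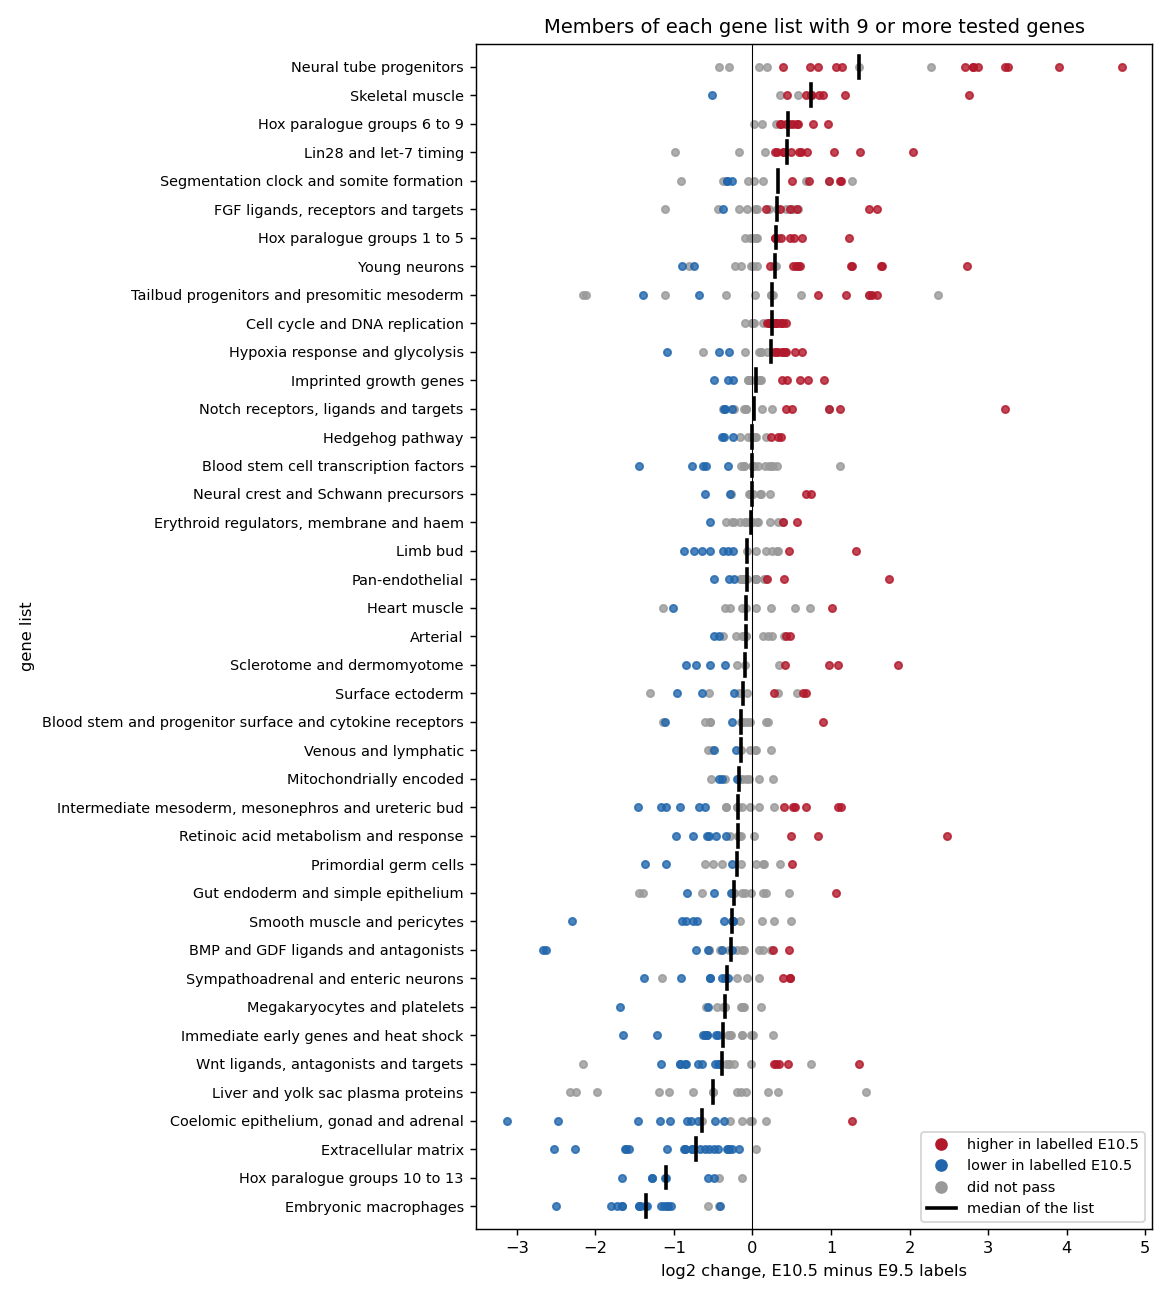
Log2 change (horizontal axis, E10.5 minus E9.5 labels) of each tested member of the gene lists with 9 or more tested genes, ordered by median, with higher genes in red, lower genes in blue and genes that did not pass in grey. Neural tube progenitors stand at the top with a median of 1.35, and extracellular matrix, Hox groups 10 to 13 and embryonic macrophages at the bottom with medians of -0.72, -1.10 and -1.35.

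Limb and tailbud genes changed in both directions. Of 15 tested limb bud genes 2 rose and 7 fell (median -0.064), where 12.1% of all tested genes rose and 12% fell. Tbx5, of the forelimb and heart, had 13.7 and 6.78 CPM in the libraries labelled E10.5, against 19.1 and 18.9 CPM in those labelled E9.5, and Tbx4, of the hindlimb, had 13.1 and 11.54 CPM at labelled E10.5, against 17.0 and 20.3 CPM at labelled E9.5 (log2 changes -0.88 ± 0.18 and -0.55 ± 0.18). Lmx1b, of the dorsal limb and kidney, had 30.4 and 18.01 CPM at labelled E10.5, against 6.20 and 14.3 CPM at labelled E9.5 and rose (1.31 ± 0.30). In the tailbud list 5 of 18 tested members rose and 2 fell, nearly all at low levels: Fgf8, a ligand of the tailbud, limb ridge and other signalling centres, had 2.45 and 3.14 CPM at labelled E10.5, against 0.813 and 1.15 CPM at labelled E9.5 (log2 change 1.59 ± 0.31). Cyp26a1, which breaks down retinoic acid, had 6.08 and 5.73 CPM at labelled E10.5, against 3.28 and 3.70 CPM at labelled E9.5 (0.83 ± 0.27). Evx1, a posterior homeobox gene also made in spinal neurons, had 1.96 and 1.70 CPM at labelled E10.5, against 5.15 and 4.85 CPM at labelled E9.5 and fell (log2 change -1.39 ± 0.25). Without E10.5 r2, 2 limb genes fell and 1 tailbud gene rose. Tbx5, Tbx4, Lmx1b, Cyp26a1 and Evx1 did not pass without the round term (adjusted p of 0.0843 to 0.283). Tbx5 (without E10.5 r2, adjusted p up to 0.102), Tbx4 (without E9.5 r2 or E10.5 r2, adjusted p up to 0.458), Fgf8 (without E10.5 r2, adjusted p up to 0.0714) and Cyp26a1 (without E9.5 r1 or E10.5 r2, adjusted p up to 0.374) did not pass with 1 library left out. Tbx5 had a log2 change between -1.35 and -0.49, Tbx4 one between -0.91 and -0.17, Lmx1b one between 0.50 and 2.26 and Cyp26a1 one between 0.36 and 1.26 with 1 library left out.

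Genes of skeletal muscle were mostly higher in the libraries labelled E10.5. Of 12 tested muscle genes 8 rose and 1 fell (0 and 0 without the round term), with a median log2 change of 0.74. Over all tested genes 12.1% rose and 12% fell. Myf5, the first myogenic factor to act, had 9.10 and 12.1 CPM in the libraries labelled E10.5, against 3.15 and 6.99 CPM in those labelled E9.5 (log2 change 1.17 ± 0.19). Myog, which drives differentiation, had 41.2 and 64.0 CPM at labelled E10.5, against 25.8 and 39.4 CPM at labelled E9.5 (log2 change 0.74 ± 0.076). The embryonic myosin Myh3 had 76.7 and 105 CPM at labelled E10.5, against 35.6 and 73.8 CPM at labelled E9.5, with E9.5 r2 close to E10.5 r1 (log2 change 0.84 ± 0.12). Myod1 was the exception, with 5.22 and 6.89 CPM at labelled E10.5, against 9.85 and 8.14 CPM at labelled E9.5 (log2 change -0.52 ± 0.17). In the second round all of these muscle genes were higher than in the first within the E10.5 group. Without E10.5 r2, 5 muscle genes rose. Myf5, Myog, Myh3 and Myod1 did not pass without the round term (adjusted p of 0.122 to 0.22). Myod1 (without E9.5 r1 or E10.5 r1 or E10.5 r2, adjusted p up to 0.712) did not pass with 1 library left out. Myh3 had a log2 change between 0.53 and 1.196 and Myod1 one between -0.86 and -0.19 with 1 library left out.

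The segmentation list had 5 higher and 3 lower of 16 tested members (median 0.32), where 12.1% of all tested genes rose and 12% fell. The 3 that fell were Epha4, Foxc1 and Tbx18. Dll1, a Notch ligand of the presomitic mesoderm and neural tube, had 16.5 and 22.6 CPM in the libraries labelled E10.5, against 10.3 and 10.3 CPM in those labelled E9.5 (log2 change 0.98 ± 0.14). Dll3, another ligand of the same tissues, had 13.8 and 13.1 CPM at labelled E10.5, against 6.53 and 6.37 CPM at labelled E9.5 (log2 change 1.12 ± 0.13). Meox1, of the somite, had 167 and 195 CPM at labelled E10.5, against 63.7 and 112 CPM at labelled E9.5 (log2 change 1.13 ± 0.11). The oscillating gene Hes7 had 0.571 and 0.271 CPM at labelled E10.5, against 0.203 and 0.247 CPM at labelled E9.5, at most 0.571 CPM in the 4 libraries, and did not pass. Of the sclerotome and dermomyotome list 4 of 11 rose and 4 fell. The members that rose include the dermomyotome genes Pax3 and Dmrt2 (0.97 ± 0.20), and those that fell are of the cartilage and tendon line: Pax1, of the vertebral sclerotome, had 124 and 111 CPM at labelled E10.5, against 198 and 160.5 CPM at labelled E9.5 (log2 change -0.54 ± 0.057). Scx, of tendon precursors, had 4.32 and 4.53 CPM at labelled E10.5, against 7.86 and 8.63 CPM at labelled E9.5 (-0.84 ± 0.16). Without the round term none of the 11 was called, and without E10.5 r2, 2 fell. Meox1, Dmrt2, Pax1 and Scx did not pass without the round term (adjusted p of 0.0536 to 0.255). Scx (without E10.5 r2, adjusted p up to 0.0904) did not pass with 1 library left out. Dmrt2 had a log2 change between 0.49 and 1.5998 with 1 library left out.

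Among the transcription factors of the first blood stem cells none rose and some fell. Of 18 tested members 0 rose and 5 fell (0 and 1 without the round term), where 12.1% of all tested genes were higher and 12% lower. The median log2 change was -0.00056, with 9 positive and 9 negative changes, so the list as a whole did not shift. Gata2, required for blood stem cells and also made in other trunk tissues, had 17.0 and 10.8 CPM in the libraries labelled E10.5, against 47.8 and 30.8 CPM in those labelled E9.5. Both groups were apart, and the log2 change was -1.44 ± 0.094 (SE; adjusted p = 3.42e-06). Runx1, the factor without which blood stem cells do not leave the artery wall, had 6.81 and 4.49 CPM at labelled E10.5, against 10.6 and 7.52 CPM at labelled E9.5, with E10.5 r1 close to E9.5 r2 (log2 change -0.63 ± 0.18, adjusted p = 0.0224). Hlf, a marker of embryonic blood stem cells, had 3.43 and 3.91 CPM at labelled E10.5, against 6.60 and 5.01 CPM at labelled E9.5 (log2 change -0.60 ± 0.18). Spi1, which drives the myeloid line, had 2.94 and 2.63 CPM at labelled E10.5, against 5.38 and 4.52 CPM at labelled E9.5 (log2 change -0.77 ± 0.21). Tal1, Lmo2 and Myb, needed for all early blood, did not pass, with log2 changes of -0.0067 ± 0.14, 0.26 ± 0.099 and 0.23 ± 0.14. Gfi1, which silences the endothelial program, stood at 1.06 and 0.968 CPM at labelled E10.5, against 0.406 and 0.575 CPM at labelled E9.5 and did not pass. Without E10.5 r2, 1 member fell, and in bulk tissue fewer cells of a type and less RNA per cell cannot be told apart. Runx1, Hlf and Spi1 did not pass without the round term (adjusted p of 0.128 to 0.225). Runx1 (without E9.5 r1 or E10.5 r2, adjusted p up to 0.319), Hlf (without E9.5 r1 or E10.5 r1 or E10.5 r2, adjusted p up to 0.547) and Spi1 (without E9.5 r1 or E10.5 r1 or E10.5 r2, adjusted p up to 0.195) did not pass with 1 library left out. Hlf had a log2 change between -0.86 and -0.33 with 1 library left out.

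Surface markers of blood stem and progenitor cells changed in both directions. Of 14 tested genes 1 rose and 2 fell (median -0.14), where 24.1% of all tested genes were called. Kit, the stem cell factor receptor, had 40.0 and 37.0 CPM in the libraries labelled E10.5, against 52.1 and 43.7 CPM in those labelled E9.5 (log2 change -0.26 ± 0.068). Itga2b, which marks the first blood cells and platelets, had 25.1 and 16.1 CPM at labelled E10.5, against 31.1 and 16.9 CPM at labelled E9.5 and did not pass. Ptprc, the pan-leukocyte marker CD45, had 4.41 and 5.19 CPM at labelled E10.5, against 8.09 and 6.29 CPM at labelled E9.5 and did not pass (adjusted p = 0.186). Csf2rb, a shared cytokine receptor chain, had 46.4 and 35.4 CPM at labelled E10.5, against 28.1 and 17.6 CPM at labelled E9.5 and rose (log2 change 0.90 ± 0.13). Kit and Csf2rb did not pass without the round term (adjusted p of 0.0785 to 0.343). Kit (without E10.5 r1 or E10.5 r2, adjusted p up to 0.385) did not pass with 1 library left out.

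Most macrophage genes fell. Of 18 tested members of the list 16 fell and 0 rose (13 and 0 without the round term), where 12% of all tested genes fell and 12.1% rose. The median log2 change was -1.35, the lowest of the lists with 9 or more tested genes. Csf1r, the receptor on which macrophages depend, had 13.01 and 11.3 CPM in the libraries labelled E10.5, against 36.1 and 29.2 CPM in those labelled E9.5, so that each E9.5 value was more than 2-fold above each E10.5 value (log2 change -1.37 ± 0.10, SE; adjusted p = 6.64e-06). Adgre1, which encodes the F4/80 antigen, had 2.61 and 1.55 CPM at labelled E10.5, against 8.43 and 6.57 CPM at labelled E9.5 (log2 change -1.81 ± 0.20). Mrc1, the mannose receptor, had 16.9 and 14.3 CPM at labelled E10.5, against 33.8 and 34.4 CPM at labelled E9.5 (log2 change -1.07 ± 0.14). The complement genes C1qa, C1qb and C1qc changed by -1.73 ± 0.21, -1.45 ± 0.15 and -1.45 ± 0.17 on the log2 scale. Ctss, a lysosomal protease, had 1.35 and 1.28 CPM at labelled E10.5, against 8.23 and 7.31 CPM at labelled E9.5 and fell most of the list (log2 change -2.504 ± 0.21). Mpeg1, a pore-forming protein of phagocytes, had 2.20 and 2.21 CPM at labelled E10.5, against 12.1 and 11.1 CPM at labelled E9.5 (log2 change -2.33 ± 0.17). Fcrls, a receptor-like protein of mouse macrophages, had 1.79 and 2.21 CPM at labelled E10.5, against 11.7 and 8.55 CPM at labelled E9.5 (log2 change -2.27 ± 0.21). The members that did not pass were Cd68 and Lyve1, which other cells of the embryo also express (log2 changes -0.42 ± 0.15 and -0.57 ± 0.39), and Timd4 and Cd163 were too low to be tested. In the libraries labelled E11.5 Csf1r had 1.45 and 1.53 CPM and Adgre1 had 0 and 0 CPM, so the level followed the labelled ages downwards.

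The promoters of the macrophage genes were searched for GAGGAA on both strands, the core that the product of Spi1 recognises. The RefSeq table of promoters (GRCm38.p6, 250 bases before to 50 after the start) matched 14 of the 20 listed genes, and 8 of them (57.1%) held the letters, against 30.4% of 12156 tested genes with a promoter. The promoters of Mrc1, with 3 matches, and C1qb, with 1, are printed on the strand of the gene with the matches in capitals. They describe these windows only and are no evidence of binding.
Mrc1 promoter (chr2:14229164-14229463, plus strand): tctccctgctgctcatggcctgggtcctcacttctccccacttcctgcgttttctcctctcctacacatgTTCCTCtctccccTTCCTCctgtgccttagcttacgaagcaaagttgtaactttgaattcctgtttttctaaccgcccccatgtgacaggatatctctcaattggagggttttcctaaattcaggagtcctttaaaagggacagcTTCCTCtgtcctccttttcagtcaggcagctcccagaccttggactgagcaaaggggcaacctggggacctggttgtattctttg
C1qb promoter (chr4:136886151-136886450, minus strand): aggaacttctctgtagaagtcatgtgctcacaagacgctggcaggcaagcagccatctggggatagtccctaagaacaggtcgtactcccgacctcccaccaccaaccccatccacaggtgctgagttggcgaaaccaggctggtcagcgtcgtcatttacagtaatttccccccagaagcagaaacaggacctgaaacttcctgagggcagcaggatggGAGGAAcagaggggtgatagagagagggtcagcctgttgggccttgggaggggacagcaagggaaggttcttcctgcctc

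Of 10 listed mast cell and granulocyte genes 7 were too low to be tested. The 3 tested genes fell, where 12% of all tested genes were lower. S100a8 and S100a9 passed the low-count filter only through the libraries labelled E9.5, so no rise could have been called for them. S100a8 had no count in either library labelled E10.5, which allows up to 0.122 and 0.116 CPM, against 1.59 and 1.56 CPM in those labelled E9.5, and S100a9, its partner in neutrophils, had 0.0408 and 0.310 CPM in the libraries labelled E10.5, against 2.03 and 2.01 CPM in those labelled E9.5. Mpo, the granule enzyme of myeloid progenitors, is a member of the blood progenitor surface list instead. It had 4.90 and 4.96 CPM at labelled E10.5, against 11.4 and 10.8 CPM at labelled E9.5 and fell (log2 change -1.11 ± 0.15). Among 12 tested platelet genes 2 fell, Pf4 and Ppbp, chemokines of platelet granules, and 8 fell without E9.5 r2. The mast cell genes Cma1, Tpsb2 and Mcpt4 had no count in any of the 4 libraries, which allows at most 0.123 CPM. Pf4 did not pass without the round term (adjusted p = 0.317). Pf4 (without E9.5 r1 or E10.5 r1 or E10.5 r2, adjusted p up to 0.757) did not pass with 1 library left out. Pf4 had a log2 change between -0.92 and -0.12 with 1 library left out.

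How many red cell genes passed the test turned on which E9.5 library was in the fit. The embryonic globins, with 5685 and 3502 CPM for Hba-x in the libraries labelled E10.5, against 6836 and 3478 CPM in those labelled E9.5, were not called (0 of 3). The first-round library was the higher of each group, and globin reads made up 1.63% and 1.19% of the E10.5 libraries, against 2.05% and 1.17% of the E9.5 libraries. Without E9.5 r1 all 3 rose, and without E9.5 r2 all 3 fell. The erythroid regulators and membrane genes showed the same dependence, with 2 higher and 1 lower of 19, 13 higher without E9.5 r1 and 12 lower without E9.5 r2. The adult beta globin Hbb-bt had 35.5 and 28.7 CPM in the libraries labelled E10.5, against 139 and 61.3 CPM in those labelled E9.5 and fell (log2 change -1.502 ± 0.15), and Hbb-bs had 14.2 and 9.02 CPM at labelled E10.5, against 29.8 and 15.2 CPM at labelled E9.5 (log2 change -0.87 ± 0.15). They are close copies of each other, and the counting may have divided reads between them. Tfrc, which takes up iron, had 241 and 237 CPM at labelled E10.5, against 163 and 171 CPM at labelled E9.5 and rose (log2 change 0.57 ± 0.069). Hbb-bs did not pass without the round term (adjusted p = 0.182). Hbb-bs had a log2 change between -1.10 and -0.58 with 1 library left out.

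Endothelial genes changed in both directions. Of 19 tested pan-endothelial genes 3 rose and 3 fell (median -0.068, none called without the round term), where 24.1% of all tested genes were called. Kdr, the main VEGF receptor, had 114 and 109 CPM in the libraries labelled E10.5, against 109 and 95.4 CPM in those labelled E9.5 (log2 change 0.18 ± 0.058). Pecam1 had 43.2 and 41.1 CPM at labelled E10.5, against 60.5 and 47.5 CPM at labelled E9.5 (log2 change -0.29 ± 0.075). Etv2, which starts the endothelial and blood program in mesoderm, had 3.10 and 1.51 CPM at labelled E10.5, against 0.643 and 0.781 CPM at labelled E9.5 and rose (log2 change 1.74 ± 0.32). Of 14 arterial genes 2 rose and 2 fell: Gja5, a gap junction protein of arteries, changed by 0.48 ± 0.098 and Notch1 by 0.42 ± 0.057, whereas the arterial ligand Efnb2 had 143 and 118 CPM at labelled E10.5, against 192 and 171 CPM at labelled E9.5 and changed by -0.42 ± 0.060. Sox17 and Dll4, regulators of arterial fate, did not pass (log2 changes 0.13 ± 0.20 and 0.25 ± 0.23). Venous and lymphatic genes gave 0 higher and 2 lower of 9, and Nr2f2, the venous determinant, had 242 and 197 CPM at labelled E10.5, against 246 and 221 CPM at labelled E9.5 and did not pass. Kdr, Pecam1, Etv2, Gja5, Notch1 and Efnb2 did not pass without the round term (adjusted p of 0.0695 to 0.459). Kdr (without E10.5 r1 or E10.5 r2, adjusted p up to 0.34), Pecam1 (without E9.5 r1 or E10.5 r1, adjusted p up to 0.449) and Gja5 (without E10.5 r2, adjusted p up to 0.121) did not pass with 1 library left out. Kdr had a log2 change between 0.12 and 0.25 and Pecam1 one between -0.41 and -0.17 with 1 library left out.

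Genes of the cells around the vessels and of the matrix between cells were mostly lower in the libraries labelled E10.5. Of 14 tested smooth muscle and pericyte genes 9 fell and 0 rose (median -0.26, 1 and 0 without the round term). Over all tested genes 12% fell and 12.1% rose. Rgs5, a pericyte marker, had 37.9 and 42.8 CPM in the libraries labelled E10.5, against 91.3 and 66.1 CPM in those labelled E9.5 (log2 change -0.90 ± 0.11). Cspg4, another, had 20.7 and 17.2 CPM at labelled E10.5, against 41.8 and 26.1 CPM at labelled E9.5 (log2 change -0.76 ± 0.11). Acta2 and Tagln, the contractile proteins of smooth muscle, did not pass, with 138 and 127 CPM at labelled E10.5, against 142 and 114 CPM at labelled E9.5 for Acta2. Of 22 tested matrix genes 21 fell and 0 rose (median -0.72, 8 and 0 without the round term). Eln, elastin of the artery wall and other elastic tissue, had 6.04 and 6.27 CPM at labelled E10.5, against 52.6 and 16.1 CPM at labelled E9.5. Ogn, a small proteoglycan, had 0.816 and 1.201 CPM at labelled E10.5, against 6.16 and 5.83 CPM at labelled E9.5. The log2 changes were -2.26 ± 0.29 for Eln (SE; adjusted p = 0.000198) and -2.52 ± 0.27 for Ogn. Col1a1, the main fibrillar collagen of connective tissue, had 403 and 277 CPM at labelled E10.5, against 886 and 436 CPM at labelled E9.5, with E9.5 r2 only slightly above E10.5 r1 (log2 change -0.86 ± 0.15). Dcn, decorin, had 7.30 and 11.0 CPM at labelled E10.5, against 33.4 and 23.4 CPM at labelled E9.5 and Fn1, fibronectin, had 1044 and 957 CPM at labelled E10.5, against 1495 and 1115 CPM at labelled E9.5 (log2 changes -1.58 ± 0.19 and -0.32 ± 0.072). Without E10.5 r1, 3 smooth muscle genes fell, and without E10.5 r2, 5. Cspg4, Col1a1 and Fn1 did not pass without the round term (adjusted p of 0.103 to 0.283). Fn1 (without E10.5 r1, adjusted p up to 0.283) did not pass with 1 library left out. Eln had a log2 change between -3.07 and -1.31, Col1a1 one between -1.19 and -0.49 and Fn1 one between -0.44 and -0.19 with 1 library left out.

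Genes of the mesonephros changed in both directions and those of the gonad mostly fell. Of 21 tested intermediate mesoderm and kidney genes 6 rose and 6 fell (1 and 2 without the round term, median -0.19). Over all tested genes 12.1% rose and 12% fell. Lhx1, one of the first factors of intermediate mesoderm, had 11.7 and 10.4 CPM in the libraries labelled E10.5, against 5.82 and 4.73 CPM in those labelled E9.5 and rose (log2 change 1.13 ± 0.13), and so did Pax8 (0.68 ± 0.15). Cdh16, a cadherin of mature tubules, had 5.79 and 4.07 CPM at labelled E10.5, against 15.3 and 12.7 CPM at labelled E9.5 and fell (log2 change -1.46 ± 0.15), as did Wnt4, which turns kidney mesenchyme into epithelium (-0.92 ± 0.11), and Wnt11 of the duct tips (-1.16 ± 0.12). Of 17 tested genes of the coelomic epithelium, gonad and adrenal 1 rose and 10 fell (1 and 3 without the round term, median -0.64). Nr5a1 had 9.71 and 7.32 CPM at labelled E10.5, against 17.0 and 13.4 CPM at labelled E9.5 (log2 change -0.78 ± 0.14), Gata4, which starts the genital ridge, had 29.2 and 15.6 CPM at labelled E10.5, against 47.7 and 33.3 CPM at labelled E9.5 (-0.83 ± 0.099). Tcf21, of the mesenchyme under the coelomic epithelium, had 14.03 and 13.5 CPM at labelled E10.5, against 36.8 and 28.1 CPM at labelled E9.5 (-1.17 ± 0.10). Both E9.5 values exceeded both E10.5 values for these 3 genes. Amhr2, the receptor of anti-Müllerian hormone, had 3.92 and 2.52 CPM at labelled E10.5, against 11.55 and 6.94 CPM at labelled E9.5 (log2 change -1.46 ± 0.18). The steroid enzyme Cyp11a1, at about 1 CPM in the E9.5 group, had 0.163 and 0.232 CPM at labelled E10.5, against 1.15 and 1.19 CPM at labelled E9.5 (log2 change -2.48 ± 0.46). These values rest on 4 and 6 counts at labelled E10.5, against 34 and 29 at labelled E9.5. Cyp11a1 and Dmrt1, both among the 10 that fell, passed the low-count filter only through the libraries labelled E9.5. No rise could have been called for either. Lhx2 was the member that rose (1.27 ± 0.22). Without E10.5 r2, 6 members of the gonad list fell. Pax8, Wnt11, Nr5a1, Gata4 and Amhr2 did not pass without the round term (adjusted p of 0.0538 to 0.238). Pax8, Nr5a1, Lhx2 and Cyp11a1 did not pass without E10.5 r2. The log2 change of Cyp11a1 lay between -2.72 and -2.29 with 1 library left out.

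Germ cell genes passed in both directions. Of 12 tested members 1 rose and 3 fell (median -0.20), where 24.1% of all tested genes were called. Pou5f1, the pluripotency factor that germ cells keep, had 2.04 and 2.17 CPM in the libraries labelled E10.5, against 3.52 and 2.26 CPM in those labelled E9.5 and did not pass. Ddx4, which germ cells express after reaching the gonad, had 1.02 and 0.930 CPM at labelled E10.5, against 2.64 and 1.77 CPM at labelled E9.5 and fell (log2 change -1.11 ± 0.28). Gut endoderm genes gave 1 higher and 3 lower of 16, close to the share called over all tested genes. Epcam, a surface protein of epithelia, had 17.5 and 22.5 CPM at labelled E10.5, against 22.8 and 26.0 CPM at labelled E9.5 and did not pass. Of 14 tested liver and yolk sac genes none passed, and Afp, the fetal albumin-like protein of those tissues, had 0.122 and 0.581 CPM at labelled E10.5, against 0.914 and 0.534 CPM at labelled E9.5. In the libraries labelled E11.5 Afp had 15.6 and 106 CPM. Ddx4 did not pass without the round term (adjusted p = 0.0993). Ddx4 (without E9.5 r1 or E10.5 r1 or E10.5 r2, adjusted p up to 0.221) did not pass with 1 library left out.

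Genes of the signalling pathways changed in both directions. Of 22 tested Wnt genes 5 rose and 10 fell (median -0.38, 0 and 2 without the round term). Over all tested genes 12.1% rose and 12% fell. The ligand Wnt5a had 99.8 and 94.3 CPM in the libraries labelled E10.5, against 158 and 126 CPM in those labelled E9.5 (log2 change -0.48 ± 0.086) and the antagonist Sfrp1 had 238 and 211 CPM at labelled E10.5, against 329 and 305 CPM at labelled E9.5 (-0.44 ± 0.067), whereas the feedback targets Axin2 and Lef1 rose by 0.27 ± 0.070 and 0.30 ± 0.094. Of 19 tested FGF genes 6 rose and 1 fell (median 0.31, 1 and 0 without the round term). The transcriptional targets Dusp6, Etv4 and Etv5 changed by 0.47 ± 0.077, 0.56 ± 0.13 and 0.35 ± 0.091, with 33.5 and 29.7 CPM at labelled E10.5, against 21.5 and 22.97 CPM at labelled E9.5 for Etv4, and the receptor Fgfr2 fell (-0.37 ± 0.050). Without E10.5 r2, 1 FGF gene and 2 Wnt genes rose, and without E10.5 r1, 1 Wnt gene. Wnt5a, Sfrp1, Axin2, Lef1, Dusp6, Etv4, Etv5 and Fgfr2 did not pass without the round term (adjusted p of 0.057 to 0.282). Axin2 (without E9.5 r1 or E10.5 r1 or E10.5 r2, adjusted p up to 0.114), Lef1 (without E9.5 r1 or E10.5 r1 or E10.5 r2, adjusted p up to 0.446), Etv4 (without E10.5 r2, adjusted p up to 0.0934) and Etv5 (without E9.5 r1 or E10.5 r2, adjusted p up to 0.137) did not pass with 1 library left out. Wnt5a had a log2 change between -0.66 and -0.30, Axin2 one between 0.18 and 0.36, Lef1 one between 0.12 and 0.47, Etv4 one between 0.31 and 0.81 and Etv5 one between 0.18 and 0.51 with 1 library left out.

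In the retinoic acid list 3 of 15 tested members rose and 6 fell (median -0.19, 1 and 2 without the round term). Over all tested genes 12.1% rose and 12% fell. Aldh1a2, the main enzyme of retinoic acid synthesis in the trunk, had 135 and 126 CPM in the libraries labelled E10.5, against 212 and 188 CPM in those labelled E9.5. Dhrs3, a target that limits synthesis, had 21.4 and 18.3 CPM at labelled E10.5, against 42.8 and 37.9 CPM at labelled E9.5. Both fell without overlap between the groups (log2 changes -0.56 ± 0.050 and -0.97 ± 0.093). Cyp26c1, which breaks down retinoic acid, had 2.53 and 1.90 CPM at labelled E10.5, against 0.440 and 0.370 CPM at labelled E9.5 and rose with Cyp26a1 (log2 change 2.48 ± 0.34), while Cyp26b1 fell (-0.46 ± 0.14). Of 13 hedgehog genes 3 rose, by at most 0.36 on the log2 scale, and 3 fell. Shh, the ligand, had 25.9 and 31.5 CPM at labelled E10.5, against 29.4 and 23.9 CPM at labelled E9.5 and did not pass. Its targets Gli1 and Ptch1 fell by 0.39 and 0.25 on the log2 scale. Of 18 BMP genes 2 rose, by at most 0.47 on the log2 scale, and 6 fell. Those that fell include Bmp4 (-0.39 ± 0.074) and the feedback inhibitors Smad7 (-0.56 ± 0.082) and Bambi (-0.72 ± 0.075). In the Notch list 5 of 16 rose and 3 fell, and Hes1, the general Notch target, did not pass (-0.24 ± 0.086). Without E10.5 r1, 3 BMP genes and no Notch gene fell. Cyp26b1, Gli1, Ptch1, Bmp4 and Smad7 did not pass without the round term (adjusted p of 0.104 to 0.293). Cyp26b1 (without E9.5 r1 or E10.5 r2, adjusted p up to 0.414), Ptch1 (without E10.5 r1, adjusted p up to 0.302) and Bmp4 (without E10.5 r1, adjusted p up to 0.127) did not pass with 1 library left out. Cyp26b1 had a log2 change between -0.65 and -0.25 with 1 library left out.

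Glycolytic enzymes and cell cycle genes were higher by small amounts. Of 18 tested genes of glycolysis and the hypoxia response 9 rose and 3 fell (median 0.23, 1 and 0 without the round term). Over all tested genes 12.1% rose and 12% fell. Ldha, lactate dehydrogenase, had 985 and 966 CPM in the libraries labelled E10.5, against 646 and 659 CPM in those labelled E9.5 (log2 change 0.64 ± 0.064, SE; adjusted p = 4.5e-05). Eno1, enolase, had 1034 and 837 CPM at labelled E10.5, against 711 and 625 CPM at labelled E9.5 (0.54 ± 0.069). The members that rose are the glycolytic enzymes Hk2, Pfkl, Aldoa, Pgk1, Eno1, Pkm and Ldha, the glucose carrier Slc2a1 and the kinase Pdk1. The hypoxia targets Vegfa and Adm fell (log2 changes -0.30 ± 0.054 and -1.08 ± 0.28). Eno1 and Aldoa have processed copies elsewhere in the genome, so their counts carry that uncertainty. Of 20 cell cycle genes 14 rose and 0 fell (median 0.25): Mcm7, of the replication helicase, had 388 and 384 CPM at labelled E10.5, against 307 and 319 CPM at labelled E9.5 (0.36 ± 0.065), whereas Mki67 had 689.9 and 779 CPM at labelled E10.5, against 769 and 754 CPM at labelled E9.5 and did not pass. None of the cell cycle genes passed without the round term, and without E10.5 r1, 5 rose. Eno1, Hk2, Pfkl, Aldoa, Pgk1, Pkm, Slc2a1, Pdk1, Vegfa, Adm and Mcm7 did not pass without the round term (adjusted p of 0.0931 to 0.267). Pdk1 (without E10.5 r2, adjusted p up to 0.0847), Vegfa (without E10.5 r1, adjusted p up to 0.0863) and Adm (without E10.5 r1 or E10.5 r2, adjusted p up to 0.173) did not pass with 1 library left out.

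Genes that respond to dissection and handling moved with the comparison as well. Of 16 tested immediate early and heat shock genes 0 rose and 8 fell (median -0.37, none called without the round term). Over all tested genes 12.1% rose and 12% fell. Fos had 110.3 and 83.8 CPM in the libraries labelled E10.5, against 159 and 152 CPM in those labelled E9.5, and Egr1 had 109.8 and 81.2 CPM at labelled E10.5, against 157 and 143 CPM at labelled E9.5 (log2 changes -0.63 ± 0.073 and -0.61 ± 0.073). Mitochondrially encoded reads made up 1.70% and 2.39% of the E10.5 libraries, against 1.85% and 2.71% of the E9.5 libraries, so the second round was higher in both groups. The part of handling in the other results was not tested. Fos and Egr1 did not pass without the round term (adjusted p of 0.0726 to 0.0785).

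Imprinted genes, of which one parental copy is silent and many control growth, split without a common direction. Of 16 tested members 5 rose and 3 fell (median 0.049, 2 and 0 without the round term). Over all tested genes 12.1% rose and 12% fell. Dlk1, which restrains differentiation, had 659 and 557 CPM in the libraries labelled E10.5, against 327 and 345 CPM in those labelled E9.5 (log2 change 0.90 ± 0.080). Meg3 and Rian, long RNAs of the same imprinted cluster, rose too (0.44 ± 0.10 and 0.60 ± 0.080). Peg10, derived from a retrotransposon, had 1677 and 1768 CPM at labelled E10.5, against 992 and 1212 CPM at labelled E9.5 (0.70 ± 0.080). Igf2, the embryonic growth factor, had 377 and 229 CPM at labelled E10.5, against 431 and 337 CPM at labelled E9.5 and fell (log2 change -0.32 ± 0.082), while H19, its imprinted neighbour, had 5188 and 6264 CPM at labelled E10.5, against 5237 and 5749.6 CPM at labelled E9.5 and did not pass. Cdkn1c, a cell cycle inhibitor, and Plagl1 fell by 0.25 and 0.49 on the log2 scale. Meg3, Rian, Igf2, Cdkn1c and Plagl1 did not pass without the round term (adjusted p of 0.058 to 0.589). Meg3 (without E10.5 r2, adjusted p up to 0.0856), Igf2 (without E10.5 r2, adjusted p up to 0.263) and Cdkn1c (without E10.5 r1 or E10.5 r2, adjusted p up to 0.209) did not pass with 1 library left out. Meg3 had a log2 change between 0.24 and 0.65 and Igf2 one between -0.49 and -0.15 with 1 library left out.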

How the data were processed

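PolyA-selected RNA was sequenced from flash-frozen mouse tissue after extraction with the Qiagen RNeasy Micro kit, per the labels' protocols. The authors deposited 1 table of whole-number read counts for 53465 genes in 14 libraries, not normalised. Tools listed in the submitters' processing notes are STAR 2.5.0a, featureCounts 1.6.0, Trimmomatic 0.36 and DESeq2 1.20.0, beside the builds GRCm38 and mm10. Their settings, and any use of the strand in counting, are not given in the sources used here. No sample column was left unused, and no pair of libraries held identical values.

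The counts of the 6 AGM libraries were fitted in R 4.3.3 with edgeR 4.0.16 (TMM scaling, genes kept by filterByExpr on the age groups, quasi-likelihood test), with a mean for each age and a term for the sequencing round, and Benjamini-Hochberg adjustment over the 17613 tested genes. Standard errors are the log2 change divided by the square root of F. CPM is the count divided by the library's total count, times 1000000, and precision at low level is set by totals of 24335839 to 29534551 in the compared libraries, where 3 counts are the limit behind a 0. These limits cover counting error only. CPM does not correct for gene length and was compared within genes only.

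The round pairs the libraries: the labels name a shared project for each round, and the differences between the rounds correlated across 17613 genes between the E10.5 and E9.5 ages (r = 0.515), E11.5 and E9.5 (0.360) and E11.5 and E10.5 (0.437). The genes named by rule are, in each direction, the 12 with the largest change among called genes that reached a mean of 5 CPM in the group where they were higher, with no overlap between the groups, the same direction in both rounds and a symbol that is no predicted gene. Members of 44 gene lists (634 genes, 633 in the table, 601 tested) were named in addition. The members and lists were chosen with earlier results of these data known. Alternatives were no round term, DESeq2 size factors, DESeq2 1.42.0, limma-voom (limma 3.58.1), no filter, other sets of libraries, each library left out, and a test against a 2-fold change. Sequences come from RefSeq and from the GRCm38 genome with GENCODE M21.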

Additional observations from a re-analysis of the deposited data

Results flagged for a closer look

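Of the 14 genes of the Lin28 and let-7 list, 8 had a difference between labelled E10.5 and E9.5 of opposite sign in AGM and in dorsal skin, positive in both AGM rounds and negative in both skin projects, counting genes with 10 or more counts over the E10.5 and E9.5 skin libraries of each project. Sall4 had the same signs (0.65 and 0.57 in AGM, against -1.24 and -0.73 in skin) but only 2 counts at E10.5 and 5 at E9.5 in the second skin project. The differences are on the log2 scale of CPM + 0.5. Lin28a differed by 2.44 in AGM round 1 and 1.68 in round 2, against -2.11 and -0.68 in the skin projects. Lin28b differed by 1.63 and 1.12 in AGM, against -1.07 and -0.90 in skin. Trim71 differed by 1.18 and 0.88 in AGM, against -1.34 and -0.38 in skin, where the second project held 24 counts at E10.5 and 21 at E9.5. For the other 5 genes the AGM differences of round 1 and round 2 were smaller. They were 0.24 and 0.082 for Igf2bp2, 0.36 and 0.22 for Igf2bp3, 0.46 and 0.33 for Mycn, 0.54 and 0.24 for Arid3b, and 0.62 and 0.34 for Dnmt3b. The skin differences of these 5 genes lay between -0.99 and -0.073. The difference between the tissues was not tested, and the second skin project was not monotonic in Lin28a, with 23.5 CPM at labelled E9.5, 14.45 CPM at E10.5, 48.6 CPM at E12.5 and 7.06 CPM at E14.5.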

How the results depend on the processing

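Of the 4237 calls (2131 higher, 2106 lower), none changed sign in any setting where the gene was tested, but their number depended on the model. Without the round as a block 457 genes passed (154 higher, 303 lower), and the DESeq2 Wald test called 2357 (1399 and 958), 2305 of them shared. With all 14 libraries in one edgeR fit 0 passed (0 higher, 0 lower), although 370 had an unadjusted p under 0.05, against 6402 with the 6 AGM libraries. A test against a 2-fold change left 87 (35 and 52). With 1 library left out the count lay between 1712 and 5485, with 811 to 3057 higher and 779 to 2825 lower. It was 1712 without E10.5 r1, 1722 without E10.5 r2, 3064 without E9.5 r1 and 5483 without E9.5 r2. DESeq2 size factors (4384), limma-voom (4451), no filter (4991), the 4 compared libraries alone (5480) and leaving out globin and mitochondrial genes (4265) stayed within 1.5 times. Of 187 genes with values in the text, 85 lost the call without the block, 24 of 183 with DESeq2 and 1 with limma-voom. Changes of sign touched only genes that had not passed: Mki67 had 0.0024 without the block, 0.00093 with DESeq2 and 0.00024 with limma-voom, Tal1 had 0.0027 with DESeq2 and 0.0013 with 4 libraries, and Stmn2 had -0.000098 with 14 libraries. Their log2 changes with 1 library left out ranged between -0.0021 and 0.24 for Acta2, between -3.24 and 0.24 for Afp, between -0.45 and 0.62 for Dcx, between -0.26 and 0.79 for Dll4, between -0.40 and 0.28 for Hba-x, between -0.31 and 0.050 for Itga2b, between -1.26 and 0.11 for Lyve1, between -0.090 and 0.090 for Mki67, between -0.11 and 0.044 for Nr2f2, between -0.12 and 0.45 for Shh, between -0.22 and 0.48 for Sox17, between -0.31 and 0.35 for Stmn2 and between -0.29 and 0.34 for Tal1. The causes of these differences were not tested, except that fewer libraries or an absent round term change the spread by construction. With 2 libraries a group, small changes and genes near 1 CPM are the least certain.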

Other observations

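Heart muscle and surface ectoderm genes passed in both directions. Of 11 tested heart muscle genes 1 rose and 1 fell, where 24.1% of all tested genes were called. Myh7, a slow myosin heavy chain, had 8.24 and 13.4 CPM in the libraries labelled E10.5, against 4.67 and 6.37 CPM in those labelled E9.5 (log2 change 1.02 ± 0.17, SE). Ryr2, the calcium release channel of heart muscle, had 3.35 and 2.60 CPM at labelled E10.5, against 7.35 and 5.18 CPM at labelled E9.5 (-1.01 ± 0.20). Among 12 surface ectoderm genes 3 rose and 3 fell, and the groups were apart for both examples. Tfap2a, a factor of surface ectoderm and neural crest, had 13.9 and 12.01 CPM at labelled E10.5, against 8.02 and 8.75 CPM at labelled E9.5 (0.68 ± 0.14). The ligand Wnt7b had 3.14 and 3.37 CPM at labelled E10.5, against 8.30 and 5.01 CPM at labelled E9.5 (-0.96 ± 0.21). Of 12 mitochondrially encoded genes 3 fell and 0 rose, among them the ribosomal RNA mt-Rnr2, with 469.6 and 474 CPM at labelled E10.5, against 724 and 605 CPM at labelled E9.5 (-0.43 ± 0.069). None of the 5 genes passed in edgeR's test without the round term (adjusted p of 0.0615 to 0.181). Myh7 did not pass without E10.5 r2 (adjusted p = 0.0719), Tfap2a and mt-Rnr2 not without E10.5 r1 (0.104 and 0.0619) and Wnt7b not without E9.5 r1 (0.146). With 1 library left out the log2 change of Wnt7b lay between -1.34 and -0.52.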
